A study of Rattus norvegicus with 36 samples.

Results

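Hexabromocyclododecane (HBCD) is a brominated flame retardant, and the comparison described here is that of HBCD at 64.1 mg/kg with its vehicle in rat liver. Each group had 6 arrays, so the comparison used 12 of the 36 arrays of the series, chosen by the sample titles. The rats were male Harlan Sprague Dawley animals, 7 weeks old when dosing began. The 64.1 mg/kg group received HBCD by oral gavage in corn oil at 5 ml per kg of body weight on 5 consecutive days, and the vehicle group received corn oil with no HBCD on the same schedule. All rats were kept on NTP-2000 diet, and the left liver lobe was taken 1 day after the last dose. The other 4 groups, at 0.06, 0.641, 6.41 and 641 mg/kg, entered the fit and are used only to place the 64.1 mg/kg group among the doses. RNA was read on Affymetrix arrays, on which a set of short probes measures one transcript or several related ones. Replicate numbers are given, but not whether each stands for its own animal. The p-values therefore rest on the spread among these arrays, part of which may be technical. Of the 6 arrays at 64.1 mg/kg, 3 (replicates 2, 3 and 4) stood apart by low macrophage markers, and the calls without them are given beside the marker values.

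Foreign compounds reach the nuclear receptors CAR and PXR in the hepatocyte. Both pair with the retinoid X receptor and bind repeated half-sites in DNA near genes of drug metabolism. Their best known targets in rat liver are the Cyp2b and Cyp3a cytochromes P450, with conjugating enzymes and transporters that carry the products out of the cell. Related sensors answer other signals: AhR answers planar aromatic compounds through Cyp1a genes, NRF2 answers electrophiles, and PPARalpha answers fatty acids.

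HBCD at 64.1 mg/kg raised a small set of drug metabolism genes. Of 31042 probe sets tested, 13 were called higher than in vehicle, which is 0.0419% of all tested, and none was called lower. A probe set was called where its p from limma, adjusted over all probe sets by the Benjamini-Hochberg method, was under 0.05. Unadjusted, 1843 probe sets had a p under 0.05. The called probe sets stand for 4 cytochromes P450, a carboxylesterase, an aldehyde dehydrogenase, an epoxide hydrolase, a steroid dehydrogenase, 3 UDP-glucuronosyltransferase measurements, a microsomal glutathione transferase and an uptake transporter. The differences ran between 1.16-fold for Cyp2c6v1 and 2.63-fold for the probe set of Cyp2b2 and Cyp2b1, and 6 of the 13 reached 1.5-fold. A fold is the difference of the mean log2 levels, turned back to a ratio.

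The region just before the start of some of these genes can be shown, since half-sites for CAR and PXR are defined by their letters. RefSeq windows on build GRCr8, from 250 bases before to 50 bases after a start, were at hand for 16 of the 21 genes named by the 13 probe sets. They were searched on both strands for AGTTCA and AGGTCA, and for pairs of these as direct repeats 3 or 4 bases apart or everted repeats 6 bases apart. Of the 16 genes, 6 had a half-site in the window, and 27.9% of all 33469 rat windows hold one. Below are the 3 among the genes of largest fold that hold a half-site, which stands in capitals on either strand.
Cyp3a23-3a1 (chr12:14398754-14399053, minus strand): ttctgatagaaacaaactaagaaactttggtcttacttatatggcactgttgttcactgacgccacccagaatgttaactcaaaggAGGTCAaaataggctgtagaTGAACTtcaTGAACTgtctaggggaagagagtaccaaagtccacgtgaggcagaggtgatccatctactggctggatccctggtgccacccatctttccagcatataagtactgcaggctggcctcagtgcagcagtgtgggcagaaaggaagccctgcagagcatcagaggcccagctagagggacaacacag
Ces2c (chr1:270376951-270377250, plus strand): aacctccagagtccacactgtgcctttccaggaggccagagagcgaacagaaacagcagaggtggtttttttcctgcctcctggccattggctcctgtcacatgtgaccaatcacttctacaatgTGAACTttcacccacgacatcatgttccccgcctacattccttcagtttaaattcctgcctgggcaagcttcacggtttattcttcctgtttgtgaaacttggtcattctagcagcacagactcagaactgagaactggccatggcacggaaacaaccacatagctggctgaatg
Ugt2b1 (chr14:21378632-21378931, plus strand): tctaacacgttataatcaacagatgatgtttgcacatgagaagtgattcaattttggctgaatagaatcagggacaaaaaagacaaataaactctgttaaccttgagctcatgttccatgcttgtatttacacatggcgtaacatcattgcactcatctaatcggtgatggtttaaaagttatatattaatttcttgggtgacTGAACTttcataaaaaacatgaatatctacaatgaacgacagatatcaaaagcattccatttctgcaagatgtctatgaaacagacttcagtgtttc

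The window of Cyp3a23-3a1 held the letters of a direct repeat with 3 bases between its half-sites, TGAACTTCATGAACT, which began 144 bases before the start. That repeat is present in 14 of all windows, or 0.0418%. A further half-site, AGGTCA, began 164 bases before the start. Ces2c had a single half-site 125 bases before its start and Ugt2b1 one 47 bases before its own. The windows of Cyp2b1 and Cyp2b2 held none of these letters. A match in letters is a description of the window and not a binding site, and binding was not measured.

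Among the cytochromes P450, the probe set shared by Cyp2b2 and Cyp2b1 had the largest difference. These paralogs are the phenobarbital-inducible enzymes of rat liver, and the probe set cannot tell them apart. Its log2 level was 11.71, 11.92, 11.87, 11.77, 11.80 and 11.57 on the 6 arrays at 64.1 mg/kg, against 10.75, 9.66, 10.63, 10.46, 9.94 and 10.84 on the vehicle arrays. The lowest treated array lay above the highest vehicle array, and the vehicle arrays spread more widely (SD 0.47) than the treated ones (SD 0.13). The rise was 2.63-fold (95% interval 1.91 to 3.60, adjusted p = 0.00217).

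Cyp3a23-3a1, a PXR-inducible enzyme that oxidises many drugs and steroids, showed the smallest p of the comparison. The arrays at 64.1 mg/kg read 13.24, 13.17, 13.26, 13.37, 13.35 and 13.17, against 12.60, 12.12, 12.45, 12.43, 12.47 and 12.29 in vehicle. A clear gap separated the lowest treated array from the highest vehicle array. The difference was 1.82-fold (1.64 to 2.02, adjusted p = 2.58e-09). Cyp3a18, a male-predominant relative that hydroxylates steroids, ran from 12.63 over a median of 12.78 to 12.95 at 64.1 mg/kg, against 11.94, 12.30 and 12.39 in vehicle. These ranges did not overlap either, at 1.47-fold (1.29 to 1.66, adjusted p = 0.00262). Cyp2c6v1, a constitutive P450 of high level, moved least of the called genes: 13.43, 13.48 and 13.55 at 64.1 mg/kg against 13.19, 13.26 and 13.36 in vehicle as lowest, median and highest. Its 1.16-fold difference (1.09 to 1.22, adjusted p = 0.0292) came with small spread in both groups, and the call was lost in 13 of 23 alternative analyses.

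Hydrolysis and oxidation were represented by 4 called genes. Ces2c, a carboxylesterase that cleaves ester drugs, read 7.69, 8.07, 7.60, 8.28, 8.15 and 7.76 at 64.1 mg/kg, against 7.44, 6.55, 6.69, 6.70, 6.90 and 6.96 in vehicle. Vehicle replicate 1 stood highest of its group and yet below every treated array. The rise was 2.07-fold (1.72 to 2.51, adjusted p = 3.45e-05). Aldh1a1, which oxidises retinal to retinoic acid, had lowest, median and highest levels of 11.73, 11.94 and 12.09 at 64.1 mg/kg and 10.72, 11.25 and 11.45 in vehicle. Its groups did not overlap and its difference was 1.66-fold (1.42 to 1.95, adjusted p = 0.00116). Ephx1, the microsomal epoxide hydrolase that turns reactive epoxides into diols, lay between 12.44 and 12.69 (median 12.53) at 64.1 mg/kg and between 11.92 and 12.31 (median 12.10) in vehicle. It was 1.36-fold higher (1.23 to 1.5, adjusted p = 0.00200). Hsd17b2, which converts estradiol to the weaker estrone, was the less separate of the 4. Its treated arrays read 9.26, 9.72 and 10.06 as lowest, median and highest, against 8.96, 9.17 and 9.31 in vehicle, and 5 of the 6 treated arrays lay above every vehicle array. The difference was 1.46-fold (1.26 to 1.70, adjusted p = 0.0292).

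Conjugation was represented by glucuronosyltransferases and 1 glutathione transferase. Ugt2b1, which glucuronidates steroids and phenols, read between 12.50 and 12.71 (median 12.56) at 64.1 mg/kg, against 11.37 to 12.09 (median 11.88) in vehicle. The treated arrays were tightly grouped and all above the vehicle range, at 1.70-fold (1.49 to 1.93, adjusted p = 1.34e-05). Ugt2a1, a glucuronosyltransferase first known from nasal tissue, gave 5.85, 6.11 and 6.24 at 64.1 mg/kg and 5.37, 5.61 and 5.89 in vehicle as lowest, median and highest. Here 1 treated array fell within the vehicle range, and the difference was 1.4-fold (1.23 to 1.58, adjusted p = 0.0148). A probe set annotated to 8 Ugt1a genes, the family that conjugates bilirubin and thyroxine, was 1.27-fold higher (1.16 to 1.4, adjusted p = 0.0336), with 11.94 to 12.20 at 64.1 mg/kg and 11.50 to 11.89 in vehicle. A second probe set of the same 8 genes was 1.16-fold higher and not called (adjusted p = 0.220). Mgst2, a membrane-bound glutathione transferase, lay between 11.13 and 11.30 at 64.1 mg/kg and between 10.59 and 11.05 in vehicle, without overlap. Its difference was 1.3-fold (1.19 to 1.43, adjusted p = 0.00649).

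Slco1a4, an organic anion transporter of the sinusoidal membrane, was the called uptake gene. One of its 2 probe sets read 10.31, 10.45 and 10.63 at 64.1 mg/kg, against 9.43, 9.93 and 10.18 in vehicle as lowest, median and highest, and was 1.52-fold higher (1.29 to 1.79, adjusted p = 0.0233). The other, of higher level, was 1.38-fold higher (1.21 to 1.58) with an adjusted p of 0.0502, just short of the threshold. Taken over the 13 called probe sets, the treated and vehicle arrays did not overlap in 11, all but Hsd17b2 and Ugt2a1. Over all probe sets 0.184% did not overlap on the higher side, and since the same arrays made the calls, the separation of the 13 adds nothing to them. Ces2c, Cyp3a23-3a1 and Ugt2b1 remained called in each of the 23 alternative analyses. The calls of Hsd17b2, Slco1a4 and Ugt2a1 were lost in 11, 9 and 7 of 23, and that of the Ugt1a probe set in 13 of 22.

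**Figure D1:**
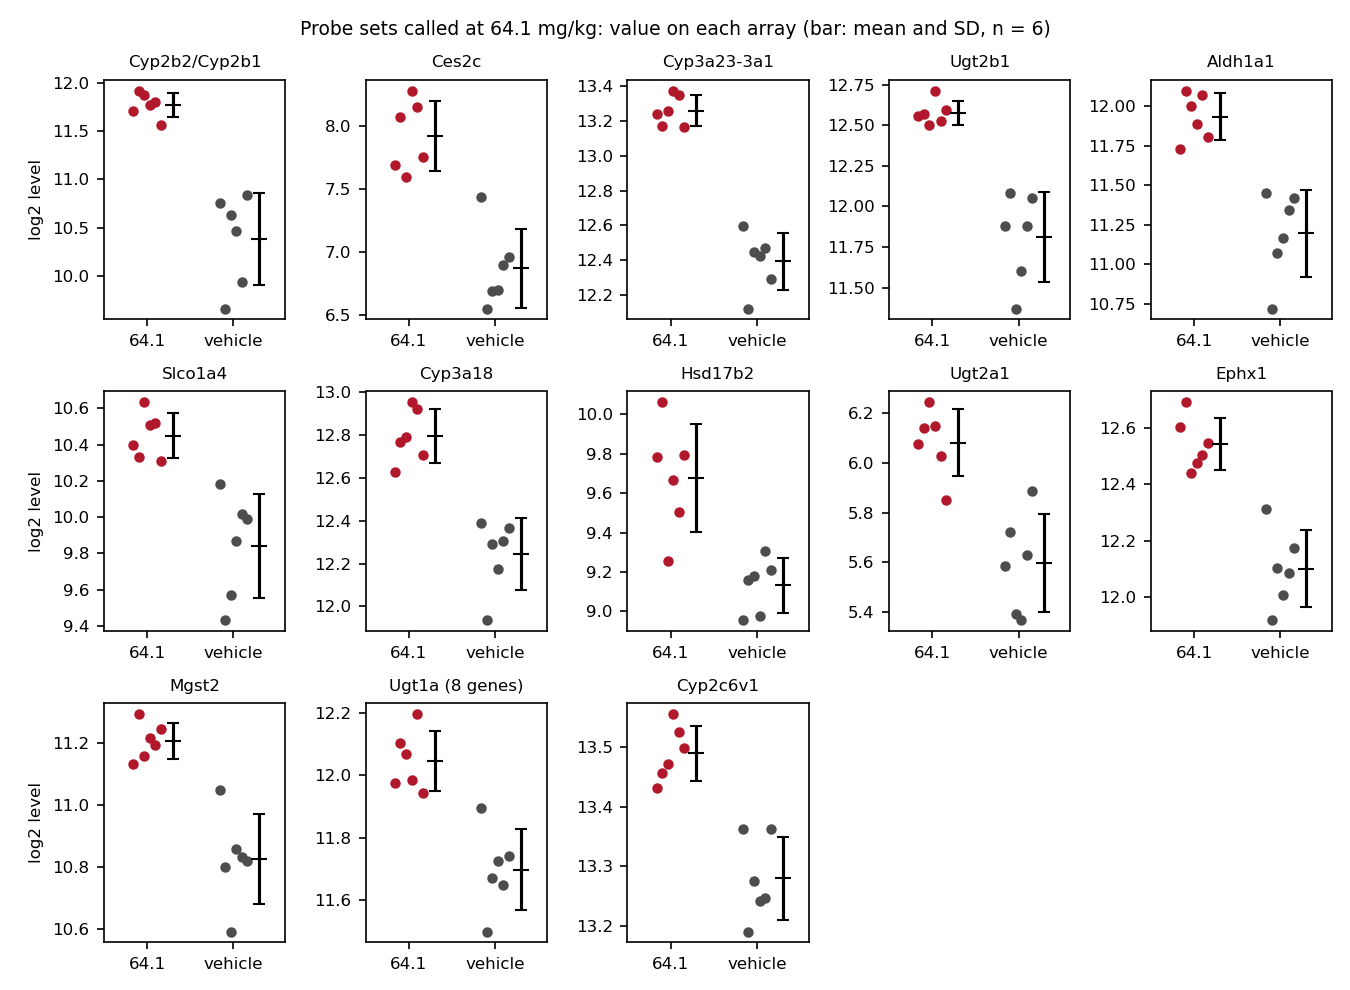
Log2 level of the 13 called probe sets on each array, 64.1 mg/kg in red and vehicle in grey, with the mean and SD of each group (n = 6) as a bar; each panel has its own log2 axis. The treated points lie wholly above the vehicle points in 11 panels, and 1 treated point lies in the vehicle range for Hsd17b2 and for Ugt2a1.

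Some genes missed the threshold narrowly. Blvrb, a biliverdin reductase, Slco1a1, another organic anion transporter, and Gsta3, an alpha-class glutathione transferase, each had an adjusted p of 0.0502. Blvrb was 1.2-fold higher (1.11 to 1.29) and Slco1a1 1.17-fold (1.10 to 1.26), and in both the 6 treated arrays lay above every vehicle array. Gsta3 had 7.80, 8.55 and 9.07 at 64.1 mg/kg and 7.05, 7.48 and 8.25 in vehicle. It was 2.00-fold higher with a wide interval, 1.49 to 2.68, and 4 of 6 treated arrays lay above the vehicle range. C8h11orf54 at 1.31-fold (adjusted p = 0.0897) and the mu-class glutathione transferase Gstm1 at 1.2-fold (adjusted p = 0.116) came next. On the lower side the nearest to a call was Nostrin, which binds endothelial nitric oxide synthase, at 0.767 times the vehicle level (0.679 to 0.867, adjusted p = 0.116). The following 5 lower genes, with adjusted p between 0.343 and 0.400, were Irf8 at 0.738 times, Cyb561d1 at 0.796, Ass1 at 0.822, Cndp1 at 0.725 and Clec4a3 at 0.665. Irf8 and Clec4a3 are genes of myeloid cells, and Clec4a3 was the one of the 5 whose groups did not overlap. Over all genes 0.232% did not overlap on the lower side. Since the 5 were picked by their p on the same arrays, the separation adds nothing.

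Each gene was then taken once, by its probe set of highest mean level, which gave 14217 genes. Probe sets with several symbols are left out of these gene counts, so the called probe sets of Cyp2b2 and Cyp2b1 and of the Ugt1a genes enter no list. On that basis 10 genes were called higher, 0.0703% of all, and the median log2 difference over all genes was 0.0025. The list of CAR and PXR targets had 23 measured members, of which 7 were called: Ces2c, Cyp3a23-3a1, Ugt2b1, Aldh1a1, Cyp3a18, Ephx1 and Cyp2c6v1. Its median log2 difference was 0.25. An unadjusted p under 0.05 on the higher side was reached by 15 members, where 3.46% of all genes did, and by none on the lower side, where again 3.46% of all genes did. Groups did not overlap on the higher side in 9 members, against 0.239% of all genes. The list was chosen with earlier results of these arrays known, so these counts describe it and are no independent evidence.

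The list also held members without a call. Abcc3, an exporter of glucuronides at the sinusoidal membrane, read 5.59, 5.94 and 6.67 at 64.1 mg/kg and 4.63, 5.19 and 5.69 in vehicle. It was 1.72-fold higher (1.28 to 2.31), but the groups overlapped and the adjusted p was 0.390. Cyp3a9, at 1.48-fold (1.08 to 2.02), and the exporter Abcb1a, at 1.24-fold (1.06 to 1.45), were likewise not called. Por, the reductase that feeds electrons to all microsomal P450s, was 1.16-fold higher (0.997 to 1.36, adjusted p = 0.844). Alas1, which controls haem synthesis, stood at 0.916 times the vehicle level (0.774 to 1.08). The receptors themselves did not pass: Nr1i2, which encodes PXR, was at 0.996 times (0.900 to 1.10) and Nr1i3, which encodes CAR, at 1.03-fold (0.797 to 1.33). None of the 22 measured nuclear receptors and partners was called.

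Within the drug metabolism families most members did not pass the test. Of 30 P450s of families 1 to 3 with a probe set of their own, which leaves out Cyp2b1 and Cyp2b2, 3 were called, Cyp3a23-3a1, Cyp3a18 and Cyp2c6v1, and the family median was 0.028 on the log2 scale. For 27 of the 30 the 95% interval of the difference lay within 1.5-fold in either direction. The male-specific steroid hydroxylase Cyp2c11 was at 1.05-fold (0.972 to 1.14) and Cyp2e1, which oxidises ethanol, also at 1.05-fold (0.978 to 1.13). Cyp3a2, close in sequence to Cyp3a23-3a1, was at 1.10-fold (1.04 to 1.16) and not called (adjusted p = 0.42). Of 9 UDP-glucuronosyltransferases with a probe set of their own, 2 were called, Ugt2b1 and Ugt2a1, beside the shared Ugt1a probe set that is not among the 9. Another, annotated as Ugt2b, was at 2.65-fold with an interval of 0.559 to 12.6, so that no size could be assigned. Of 19 glutathione transferases, Mgst2 was called, 16 had a positive difference and the median was 0.12. An unadjusted p under 0.05 was reached by 9 of the 19 on the higher side and by none on the lower, where 3.46% of all genes did so on either side. None of 14 sulfotransferase genes was called, with a median of 0.0024 and 12 intervals within 1.5-fold. Sult1e1, which sulfates estrogens, had the smallest p among these and was at 0.854 times the vehicle level (0.758 to 0.962, adjusted p = 0.690). None of 14 aldo-keto reductases, 14 ABC exporters or 11 uptake transporters was called when each gene was taken by its highest probe set. An unadjusted p under 0.05 was reached by 2, 5 and 3 of these on the higher side and by 1 of each on the lower. Over all genes 3.46% did so on either side. Groups did not overlap on the higher side in 1, 0 and 2 of them, against 0.239% of all genes. That aldo-keto reductase was Akr1d1, also on the bile acid list, at 1.16-fold (1.08 to 1.24, adjusted p = 0.116).

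**Figure D2:**
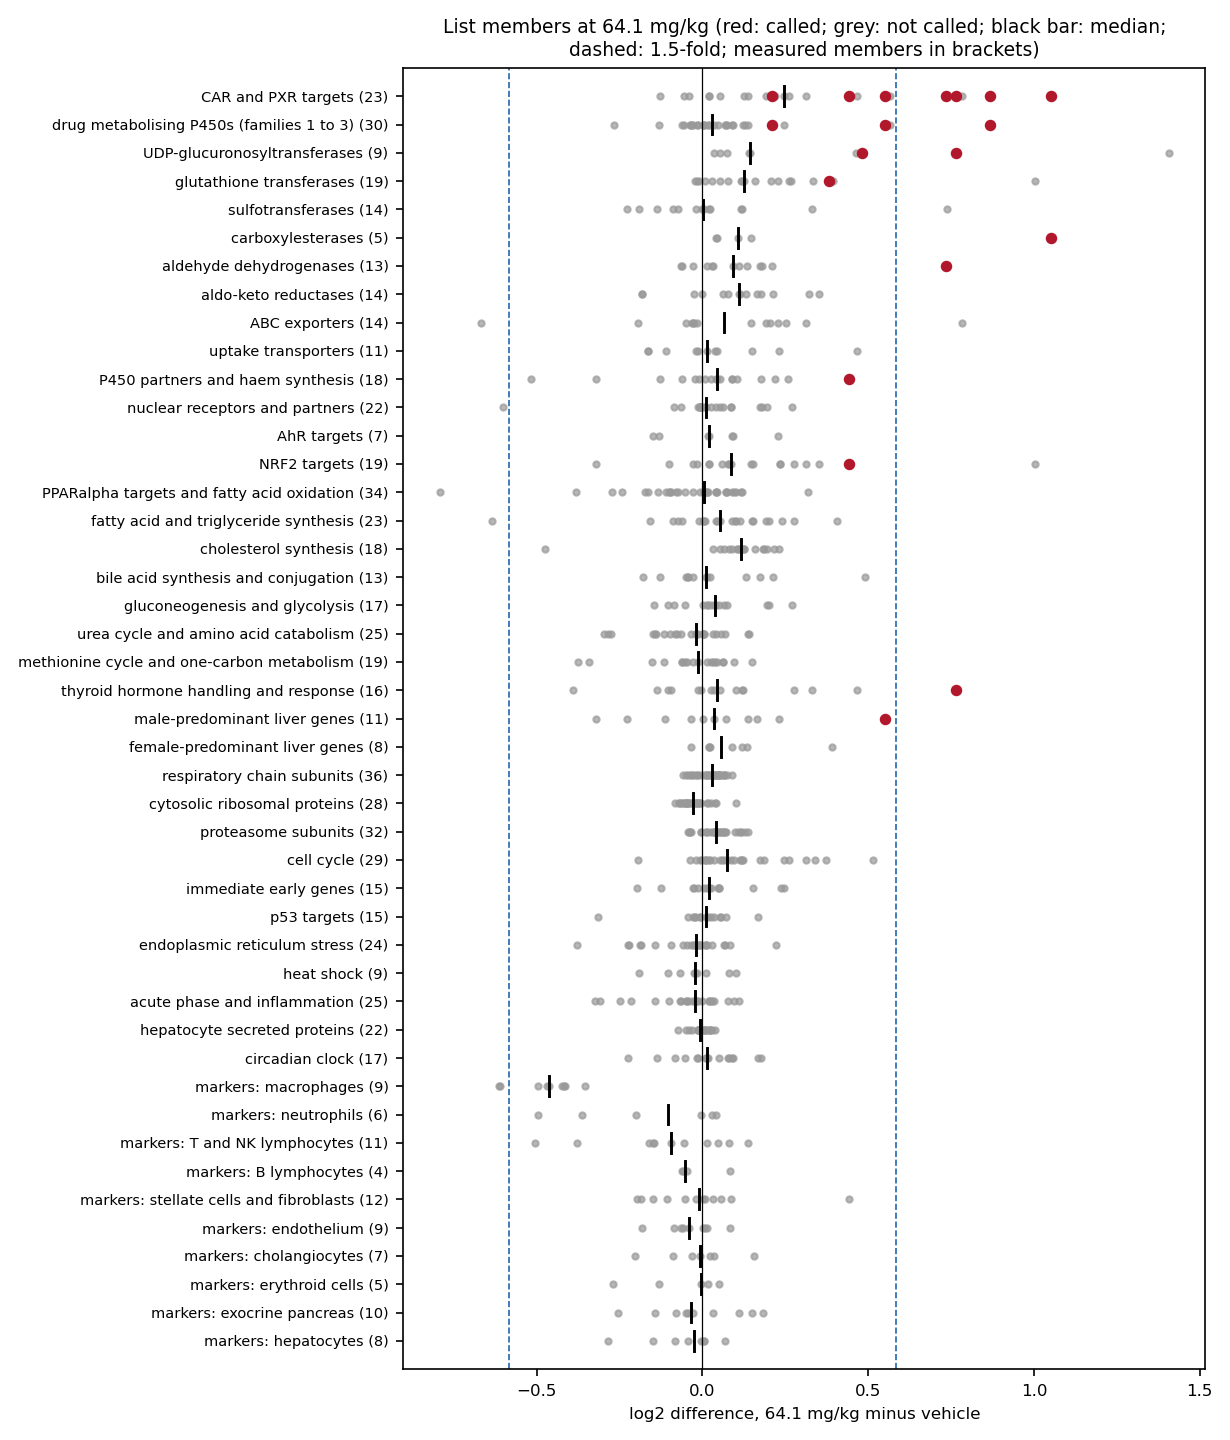
Log2 difference, 64.1 mg/kg minus vehicle, of the measured members of 45 gene lists, with called members in red, the list median as a black bar and 1.5-fold as dashed lines. Red points fall in 10 lists, which share members. The macrophage markers lie below 0 in all 9 members.

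The dose just below gave fewer contrasts. Between 64.1 and 6.41 mg/kg, 1 probe set was called higher, 0.00322% of all tested, and it was Cyp3a23-3a1. Its lowest, median and highest levels were 12.12, 12.44 and 12.60 in vehicle, 12.37, 12.42 and 12.60 at 0.06 mg/kg, 12.39, 12.50 and 12.58 at 0.641 mg/kg, 12.32, 12.66 and 12.85 at 6.41 mg/kg, 13.17, 13.25 and 13.37 at 64.1 mg/kg, and 13.62, 13.67 and 13.77 at 641 mg/kg. The arrays at 64.1 mg/kg thus lay apart from those of the dose below and of the dose above, 1.58-fold over 6.41 mg/kg (1.42 to 1.75, adjusted p = 3.72e-06). The Cyp2b probe set was 1.29-fold over vehicle at 0.06 mg/kg, 1.36-fold at 0.641 mg/kg and 1.78-fold at 6.41 mg/kg, none called. Its 1.47-fold difference between 64.1 and 6.41 mg/kg (1.07 to 2.02) was not called either (adjusted p = 0.819). It was not alone: uncalled, Ces2c was at 1.31-fold and 1.43-fold at these doses and Aldh1a1 at 1.15-fold and 1.32-fold. Cyp3a18 and Mgst2 were at 1.08-fold and 1.07-fold at 6.41 mg/kg. Hsd17b2 was at 1.29-fold, 1.32-fold and 1.25-fold at 0.06, 0.641 and 6.41 mg/kg, none called. Its step from 6.41 to 64.1 mg/kg was 1.17-fold, not called. All doses share the vehicle arrays, and whether these lay low for Hsd17b2, Cyp2b, Ces2c, Aldh1a1 or Ugt2b1 was not tested.

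Between 641 and 64.1 mg/kg, 59 probe sets were called higher, 0.190% of all tested, and 16 lower, 0.0515%. That comparison shares the 64.1 mg/kg arrays with the one against vehicle, so the values are given side by side. Of the 13 members, 9 were called higher again at the top dose. Ces2c was 2.07-fold over vehicle at 64.1 mg/kg and 4.41-fold at 641 mg/kg, a further 2.13-fold (1.76 to 2.57, adjusted p = 2.40e-05). Aldh1a1 was at 1.66-fold and 2.48-fold, Cyp3a23-3a1 at 1.82-fold and 2.45-fold, and the called Slco1a4 probe set at 1.52-fold and 2.29-fold. The other 4 were not called between these doses. For Cyp2b2 and Cyp2b1 the step was 1.53-fold (1.11 to 2.10, adjusted p = 0.380) and for Ugt2b1 1.26-fold (1.10 to 1.43, adjusted p = 0.167). For Hsd17b2 it was 1.10-fold (0.947 to 1.28) and for Cyp2c6v1 1.04-fold (0.981 to 1.10), so that a step above 1.28-fold for Hsd17b2 or above 1.10-fold for Cyp2c6v1 lay outside the 95% interval.

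Other genes were called between the top doses without a call against vehicle at 64.1 mg/kg. Abcc3 was 1.72-fold over vehicle at 64.1 mg/kg and 5.26-fold at 641 mg/kg, a step of 3.06-fold (2.28 to 4.11, adjusted p = 5.09e-05). Gsta3 rose by a further 2.61-fold (1.95 to 3.5), Cryl1, a sugar acid dehydrogenase, by 1.84-fold, and Akr7a3, which reduces aflatoxin aldehyde, by 1.80-fold. Pir, a protein that NRF2 is known to regulate, was 1.10-fold over vehicle at 64.1 mg/kg (0.953 to 1.28) and rose 1.67-fold at the step above. The other genes with large steps were Snx10, a sorting nexin, at 2.01-fold and the chemokine Cxcl9 at 1.81-fold. At 64.1 mg/kg both had estimates below vehicle, Snx10 at 0.900 times (0.652 to 1.24) and Cxcl9 at 0.803 times (0.617 to 1.05), neither called. Cxcl9 at 64.1 mg/kg also stood at 0.651 times its level at 6.41 mg/kg (0.500 to 0.848, adjusted p = 0.743). These steps are therefore not measured from the vehicle level. On the lower side the taurine transporter Slc6a6 had 8.73, 8.87 and 9.21 at 64.1 mg/kg, against 8.79, 9.33 and 10.03 in vehicle, and 0.721 times the vehicle level did not pass (0.535 to 0.971, adjusted p = 0.792). At 641 mg/kg its arrays lay between 7.24 and 7.97, at 0.387 times the level of 64.1 mg/kg (0.287 to 0.521). Gnmt, which consumes S-adenosylmethionine, stood at 0.788 times vehicle at 64.1 mg/kg (0.689 to 0.901, adjusted p = 0.432) and fell to 0.742 times that at 641 mg/kg. Cyp1a2, the main Cyp1a enzyme of liver, stood at 0.912 times vehicle (0.844 to 0.986, adjusted p = 0.739) and fell to 0.794 times at the step above. Abhd2, Plekhb1, Sat1, Hmx1 and Mark4 also fell between these doses, to between 0.685 and 0.802 times. At 64.1 mg/kg they stood at 0.977, 0.894, 0.911, 1.12 and 1.13 times vehicle, none called. The last, Hmx1 and Mark4, had mean levels of 3.13 and 4.48 over all arrays, below every array's median.

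**Figure D3:**
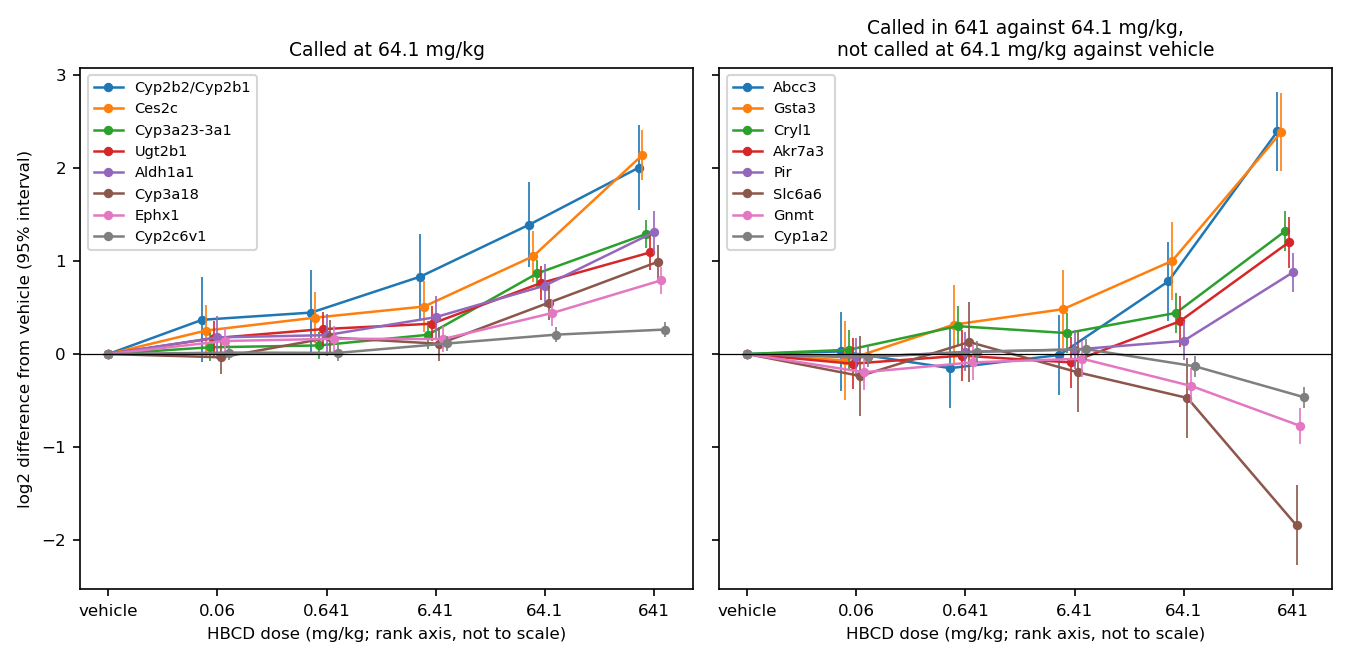
Log2 difference from vehicle with its 95% interval at each dose (rank axis, not to scale) for 8 genes called at 64.1 mg/kg, left, and 8 called between 641 and 64.1 mg/kg but not at 64.1 mg/kg against vehicle, right. All points of a gene share the vehicle arrays. Genes on the left are up to 1.39 log2 units above vehicle at 64.1 mg/kg, and on the right Abcc3 and Gsta3 reach 2.40 and 2.39 at 641 mg/kg.

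Functions other than drug metabolism showed few calls at 64.1 mg/kg. Of 22 lists on metabolism, housekeeping, growth and stress, with 447 measured genes, 19 had none. The 3 exceptions each held 1 gene that also belongs to the induced set: Ephx1 in the NRF2 list, Ugt2b1 in the thyroid hormone list and Cyp3a18 among male-predominant genes. Over all genes 0.0703% were called, so most lists of this size would hold no call, and the 19 say little about these functions. A missing call does not show that a gene was unchanged, so the width of each interval was used. Over all genes, 97.3% had a 95% interval that lay within 1.5-fold of the vehicle level in both directions. Over all tested probe sets, the median interval reached 1.12-fold to either side of the estimate. Probe sets near the bottom of the scale respond weakly to a change in RNA, and for these a narrow interval says less.

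The narrowest intervals were those of the abundant housekeeping products. All 36 respiratory chain subunits, 28 cytosolic ribosomal proteins, 32 proteasome subunits and 22 hepatocyte secreted proteins were bounded within 1.5-fold. Albumin (Alb), the main plasma protein, was between 14.52 and 14.55 at 64.1 mg/kg and between 14.50 and 14.53 in vehicle, which bounds it to 0.950 to 1.06 times but lies near the top of the array scale. The mitochondrial ATP synthase subunit Atp5f1c was at 1.05-fold (0.994 to 1.10) and the ribosomal protein Rpl26 at 0.952 times (0.886 to 1.02). The proteasome subunit Psmd8 had the smallest p of its list, at 1.10-fold (1.03 to 1.18, adjusted p = 0.658).

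In lipid metabolism no gene was called. Of 34 targets of PPARalpha and genes of fatty acid oxidation, 31 were bounded within 1.5-fold, with a median log2 difference of 0.0042. Cyp4a1, the fatty acid hydroxylase that responds most to PPARalpha in rat, was at 0.892 times (0.739 to 1.08), and Cpt1a, the entry step of mitochondrial oxidation, at 0.827 times (0.719 to 0.951, adjusted p = 0.666). Among 23 genes of fatty acid and triglyceride synthesis 20 were bounded. Fasn, the fatty acid synthase, was at 0.896 times (0.732 to 1.10). The desaturase Scd was not bounded: its arrays ran from 8.10 to 9.83 at 64.1 mg/kg and from 8.19 to 11.12 in vehicle, and 0.644 times came with an interval of 0.398 to 1.04. Of 18 cholesterol synthesis genes 17 had a positive difference, with a median of 0.12 log2 units, and none was called. Mvk, the mevalonate kinase, had the smallest p there, at 1.17-fold (1.04 to 1.32, adjusted p = 0.690). Cyp7a1, whose step limits the making of bile acids, ran from 9.68 to 12.03 at 64.1 mg/kg and from 8.55 to 11.35 in vehicle, too wide for a statement on size (1.4-fold, 0.749 to 2.63). Nr0b2, a repressor of Cyp7a1, was at 0.659 times (0.435 to 0.998, adjusted p = 0.836).

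Glucose, nitrogen and one-carbon metabolism gave no call either. Pck1, the first enzyme of gluconeogenesis, was at 0.904 times (0.745 to 1.10). Among 25 genes of the urea cycle and amino acid catabolism, Ass1, which makes argininosuccinate, came nearest, with lowest, median and highest levels of 12.05, 12.22 and 12.35 at 64.1 mg/kg and 12.31, 12.56 and 12.63 in vehicle. The groups overlapped slightly and Ass1 was at 0.822 times (0.738 to 0.915, adjusted p = 0.394). Of 19 genes of the methionine cycle and one-carbon metabolism 18 were bounded. Of 16 genes of thyroid hormone handling and response, Ugt2b1 was called, and the deiodinase Dio1 was at 1.09-fold (0.976 to 1.21). Of the 16, 11 were bounded within 1.5-fold, all but Klf9, Serpina7, Slco1a4, Ugt2b1 and Sult1c2.

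Growth genes were less tightly bounded, while stress genes differed by list. None of 29 cell cycle genes was called, 24 had a positive difference and 22 were bounded within 1.5-fold. Of the 29, 10 had a mean level below every array's median, and for these a narrow interval says less. Mki67, a marker of dividing cells, was at 1.05-fold (0.732 to 1.5), and cyclin A2 (Ccna2) at 1.43-fold (0.957 to 2.13, adjusted p = 0.879), with 4.11 to 4.66 at 64.1 mg/kg and 3.12 to 4.85 in vehicle. None of 15 immediate early genes was called, 11 were bounded within 1.5-fold, and Myc was at 1.19-fold with an interval of 0.771 to 1.83. Of these 15, 5 had a mean level below every array's median. The p53 target Cdkn1a was at 1.04-fold (0.854 to 1.26) and the endoplasmic reticulum chaperone Hspa5 at 0.937 times (0.850 to 1.03). All 9 heat shock genes were bounded within 1.5-fold, as were 14 of 15 p53 targets and 22 of 24 endoplasmic reticulum stress genes. None of 25 acute phase and inflammation genes was called, and 19 were bounded.

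The other chemical sensors were read through their targets. None of 7 AhR targets was called, where 0.0703% of all genes were. Of the 7, 4 were dim, with a mean level below every array's median, so the missing calls say little. Ahrr had the smallest p of the 7, at 1.17-fold (1.05 to 1.31, adjusted p = 0.666), with a mean level of 2.91 over all arrays. Cyp1a1, with a mean level of 4.56 over all arrays, was at 1.06-fold (0.866 to 1.31). It read 3.94 to 5.16 at 64.1 mg/kg and 4.29 to 4.76 in vehicle. Of 19 NRF2 targets the called one was Ephx1, which the CAR and PXR list holds too, and the median was 0.087. An unadjusted p under 0.05 was reached by 7 of the 19 on the higher side (Ephx1, Gsta3, Tkt, Gsr, Gclm, Akr7a3 and Gclc) and by Hmox1, the haem oxygenase, on the lower side, where 3.46% of all genes did so on either side. Gsta3 was at 2.00-fold as given above, Gsr, the glutathione reductase, at 1.24-fold (1.10 to 1.41, adjusted p = 0.497) and Hmox1 at 0.801 times (0.690 to 0.930, adjusted p = 0.637). Gclc, the catalytic subunit for glutathione synthesis, was at 1.11-fold (1.01 to 1.22, adjusted p = 0.787), and Nqo1, a quinone reductase, at 1.01-fold with an interval of 0.631 to 1.63. Its arrays lay between 7.11 and 7.73 at 64.1 mg/kg and between 6.86 and 9.37 in vehicle. At the step from 64.1 mg/kg up to 641 mg/kg, 7 of the 19 NRF2 targets and 10 of the 23 CAR and PXR targets were called higher, where 0.295% of all genes were. Both lists hold Ephx1.

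**Figure D4:**
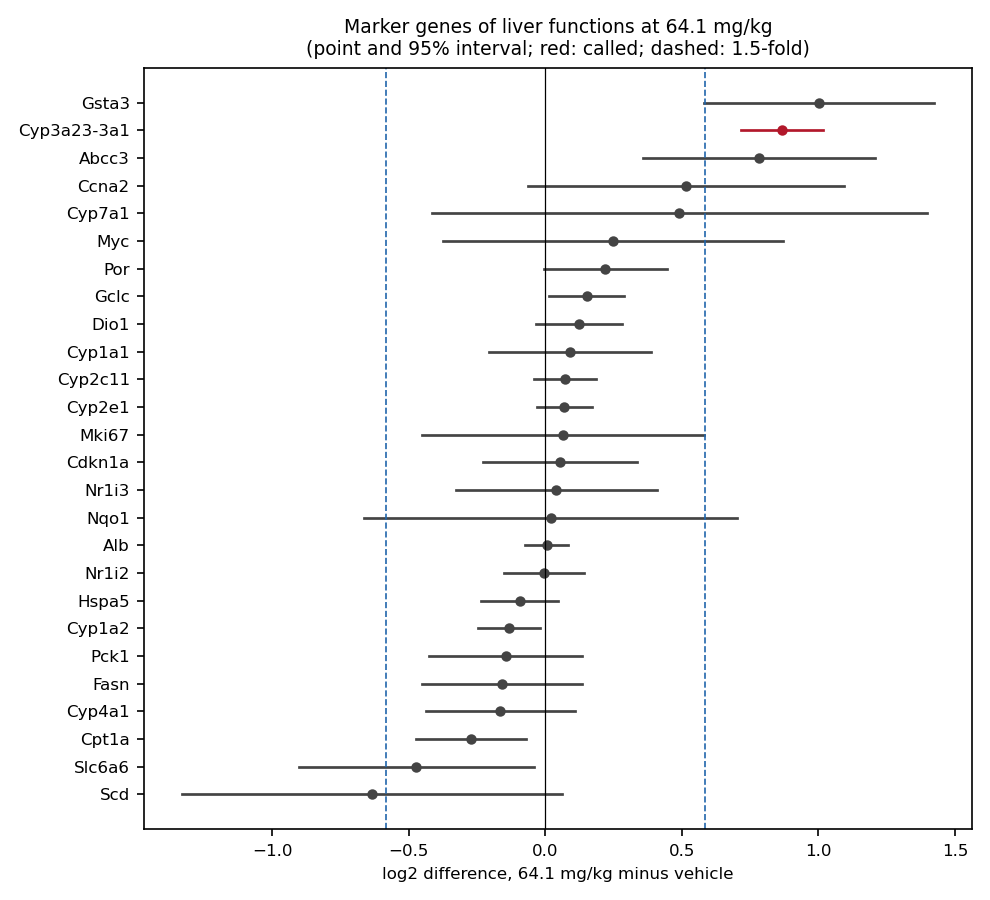
Log2 difference, 64.1 mg/kg minus vehicle, with its 95% interval for 26 marker genes of liver functions, Cyp3a23-3a1 in red as the called gene and 1.5-fold as dashed lines. Outside or across a dashed line lie the intervals of Cyp3a23-3a1, Gsta3, Abcc3, Nqo1, Scd, Cyp7a1, Ccna2, Myc and Slc6a6, while Alb, Cyp2e1, Cyp2c11 and Nr1i2 lie well inside.

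Arrays were also compared for the other cells that liver tissue holds. Hepatocyte markers were high on all 12 arrays, with 8 of 8 measured markers bounded within 1.5-fold and a mean level of 12.76 to 12.94 at 64.1 mg/kg and 12.88 to 12.98 in vehicle. All 9 measured macrophage markers were lower at 64.1 mg/kg with an unadjusted p under 0.05, where 3.46% of all genes were. None of the 9 was called, and they stood at 0.654 to 0.782 times vehicle with a median log2 difference of -0.46. Their groups did not overlap in 2 of the 9, where 0.232% of all genes lay apart on the lower side. Csf1r, the receptor for the macrophage growth factor, was at 0.750 times (0.621 to 0.906, adjusted p = 0.620). The mean log2 level of the 9 markers was 8.41, 7.86, 7.57, 7.75, 8.54 and 8.38 on the 6 arrays at 64.1 mg/kg, against 8.46 to 8.82 in vehicle with a median of 8.51. Replicates 2, 3 and 4 at 64.1 mg/kg were therefore low and the other 3 close to or within the vehicle range. Single arrays at 0.06, 0.641 and 6.41 mg/kg also reached 8.01, 7.84 and 7.76. In whole tissue, fewer macrophages and less RNA per macrophage cannot be told apart.

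Without those 3 arrays, a choice made after the values were seen, 3 probe sets were called, Ces2c, Cyp3a23-3a1 and Ugt2b1. Fold differences were then 1.99, 1.81 and 1.68 for these genes and 2.48 for the Cyp2b probe set (adjusted p = 0.172), with 3 treated arrays left. With the macrophage mean of each array as a covariate, 4 were called, the same 3 and Aldh1a1. The folds of genes no longer called were then 2.31 for the Cyp2b probe set, 1.4 for Cyp3a18, 1.32 for Ephx1 and 1.25 for Mgst2, against 2.63, 1.47, 1.36 and 1.3 without the covariate. Endothelial markers were bounded in 9 of 9, erythroid in 5 of 5, exocrine pancreas in 10 of 10 and B lymphocyte markers in 4 of 4. Dim members, with a mean level below every array's median, were 8 of the 10 pancreas and 3 of the 4 B lymphocyte markers. So were 2 of the 5 erythroid and 4 of the 7 cholangiocyte markers, and for dim members a narrow interval says less. Stellate cell and fibroblast markers were bounded in 10 of 12, all but Dcn and Lum, cholangiocyte markers in 6 of 7, all but Krt19, neutrophil markers in 4 of 6 and T and NK lymphocyte markers in 9 of 11. Of the neutrophil markers 2 had a positive and 4 a negative difference (median -0.10), and of the T and NK markers 4 had a positive and 7 a negative one (median -0.095). Most of these last were dim: 5 of 6 and 10 of 11 had a mean level below every array's median. The members of smallest p were the neutrophil marker S100a9 at 0.709 times (0.560 to 0.898, adjusted p = 0.658) and the T lymphocyte marker Cd8a at 0.704 times (0.566 to 0.876, adjusted p = 0.550), neither called.

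**Figure D5:**
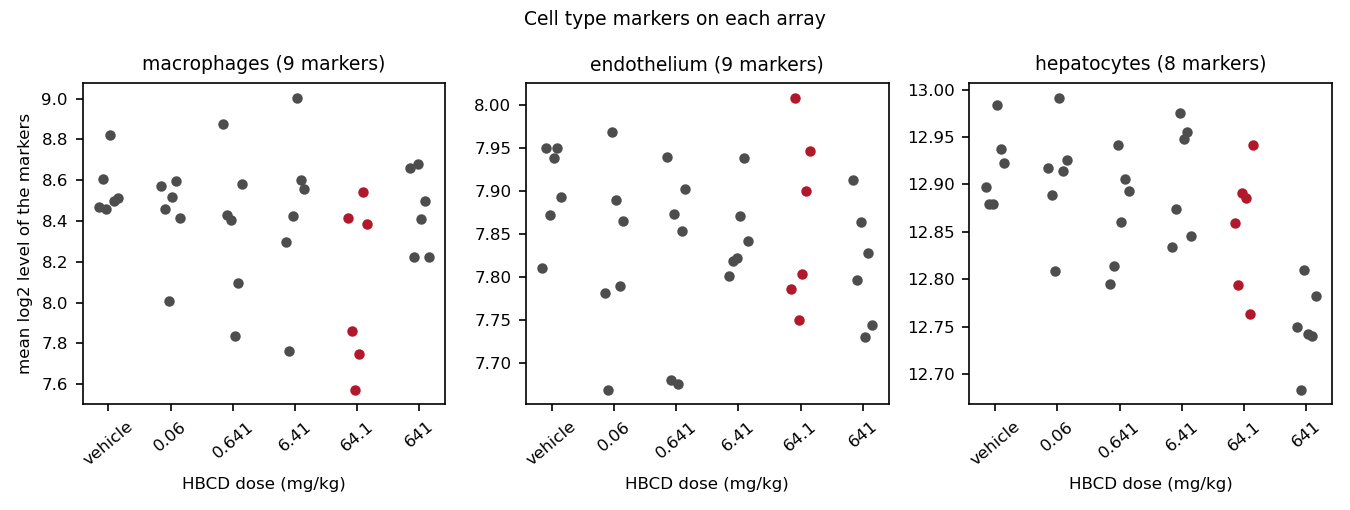
Mean log2 level of the macrophage, endothelial and hepatocyte markers on each array, by dose, with 64.1 mg/kg in red. In the macrophage panel 3 red points lie between 7.57 and 7.86 and the other 3 between 8.38 and 8.54; vehicle points lie at 8.46 or above.

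The arrays were alike in their general measures. Array medians over all tested probe sets lay between 4.83 and 4.90 across the 36 arrays. The difference between 3' and 5' control probe sets, which grows as RNA degrades, was -0.0039 ± 0.070 at 64.1 mg/kg and 0.0040 ± 0.039 in vehicle for GAPDH (SD, n = 6 each, exact permutation test, two-sided p = 0.803). For beta-actin it was 1.19 ± 0.12 at 64.1 mg/kg and 1.17 ± 0.14 in vehicle (SD, n = 6 each, exact permutation test, two-sided p = 0.805). The 924 splits of 6 against 6 allow a smallest p of 0.00216.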

How the data were processed

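RNA of 36 rat liver samples in 6 groups was read on Affymetrix arrays. The deposited values are log2 levels per probe set, and RMA and the affy package are named in the submitters' processing notes; further settings are not given in the sources used here. Of 31099 probe sets, 57 control ones were left out and 31042 tested without a filter. The platform annotation gave 1 symbol for 20826, several for 436 and none for 9780. Array signal has no read depth, so the number of arrays limits precision.

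limma 3.58.1 in R 4.3.3 fitted 6 group means over all 36 arrays, which share 1 estimate of spread. Contrasts were 64.1 mg/kg minus vehicle, 641 minus 64.1 and 64.1 minus 6.41. The p-values were adjusted over all probe sets (Benjamini-Hochberg, 0.05), and the fit was tested on simulated data. The series' design text names R/maanova at an FDR of 5%, which was not run. Genes named were the called ones, the 6 nearest on each side, a marker panel, the member of smallest p in some of the lists and the largest changes between doses. Where a list's member of smallest p is not named, it was not called. Further list members were picked as examples after their values were seen. The members and lists were chosen with earlier results of these data known. Alternatives are given in the closing section. Promoter windows come from RefSeq (GRCr8).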

Additional observations from a re-analysis of the deposited data

Results flagged for a closer look

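In 88 probe sets named here, each with 2 groups of 6 arrays, 14 of 176 groups had 1 array that lay farther from its neighbour than Dixon's test allows at 95%. Chance gives about 1 such group in 20. At 64.1 mg/kg, replicate 3 stood apart in 3 genes: Slco1a1 read 10.2 there, against 9.97 to 10.1 on the other 5 arrays, Gstm1 read 12.8 and Nqo1 read 7.11. Replicate 2 at 64.1 mg/kg read 3.36 for Egr2 and 12.4 for F9. In vehicle, replicate 1 read 12.9 for Gstm1, 5.40 for Mki67 and 9.93 for Psmd8. Vehicle replicate 2 read 9.37 for Nqo1, against 6.86 to 7.61 on the other 5 arrays, which is the wide vehicle spread of that gene. Vehicle replicate 4 read 7.83 for the macrophage gene Csf1r, 5.78 for Cd22 and 7.39 for Cxcl9. Vehicle replicate 5 read 5.63 for Pdgfrb and vehicle replicate 6 read 14.5 for Alb. None of the 13 called probe sets had such an array in either group.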

How the results depend on the processing

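The 13 calls at 64.1 mg/kg against vehicle became 5 with those 2 groups alone in the fit, 28 with a dim filter at a log2 group mean of 6 (27 higher and 1 lower), 24 with a variance trend and robust moderation, 20 with the 5 doses adjusted together, 6 with a 1.5-fold minimum, 4 with the macrophage covariate and 3 without the 3 low-macrophage arrays. Leaving out 1 array at a time gave 8 to 18, with 8 without replicate 4 at 64.1 mg/kg and 8 without vehicle replicate 3. The 75 calls between 641 and 64.1 mg/kg became 35, 49 with probe sets averaged per gene, 47 with the macrophage covariate and 20 with the minimum, the first in the 2 groups alone. Single arrays left out gave 32 to 95, with 32 without replicate 2 and 40 without replicate 5 at 641 mg/kg, and 43 without replicate 3 and 39 without replicate 6 at 64.1 mg/kg. The 1 call between 64.1 and 6.41 mg/kg became 2 in the 2 groups alone, and 1 to 2 with single arrays left out (2 without replicate 1 or replicate 2 at 6.41 mg/kg). The causes were not tested. Replicate numbers did not pair the arrays (same-number correlations -0.25 to 0.17, with the own number best for 1 of 6). As a block they gave 12, 64 and 1 calls, and Cyp2c6v1 and the Ugt1a probe set were then not called. The share of all probe sets bounded within 1.5-fold, 97.9%, was 96.3% to 98.0% under the alternatives run with this bound, and 99.6% lay within 2-fold. Differences turned sign in 8 uncalled genes. Without the 3 low-macrophage arrays, Cyp1a1 was at -0.27 (log2), Cyp7a1 at -0.28, Alb at -0.0012 and Nr1i3 at -0.053. The macrophage covariate gave -0.014 for Alb, -0.044 for Mki67 and -0.16 for Nr1i3. Single arrays left out gave -0.12 to 0.39 for Nqo1, -0.034 to 0.21 for Cyp1a1, -0.00015 to 0.0073 for Alb, -0.049 to 0.18 for Cdkn1a, -0.0072 to 0.25 for Mki67, -0.040 to 0.027 for Nr1i2 and -0.067 to 0.16 for Nr1i3. The same gave -0.025 to 0.010 for the 3' to 5' difference of GAPDH and -0.017 to 0.061 for beta-actin.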
